A study of Mus musculus with 12 samples.

Results

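The genes described here are 9 components of autonomic signalling in the heart, read from the left atria (LA) of mice with and without Notch activation in cardiomyocytes. They were listed by name, as receptors for noradrenaline and acetylcholine, the G protein alpha subunits behind them and regulators of G protein signalling (RGS), and all 9 were found among the 54658 gene names of the table. Sympathetic nerves release noradrenaline, which acts on *Adrb1*, the β1-adrenergic receptor, to speed and strengthen the beat through the stimulatory subunit encoded by *Gnas*, adenylyl cyclase and protein kinase A. The vagus releases acetylcholine, which acts on *Chrm2*, the M2 muscarinic receptor, to slow the heart through inhibitory subunits such as *Gnai2* and through the potassium channel that the beta and gamma subunits open. The α1-adrenergic receptors *Adra1a* and *Adra1b* act through the Gq class of subunits, and RGS proteins shorten the signal by speeding the return of alpha subunits to their inactive state.

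The study asked how Notch activation in adult cardiomyocytes alters atrial gene expression, and RNA sequencing counts from 6 iNICD and 6 control LA were used here. The iNICD mice carried αMHC-rtTA, in which a cardiomyocyte promoter drives the doxycycline-dependent transactivator, together with TetO-NICD, which encodes the intracellular domain of Notch1. The controls were littermates with αMHC-rtTA alone, so both groups shared the transactivator and the doxycycline chow, given for 3 weeks from young adulthood on a mixed genetic background, with no washout before the tissue was taken. Of the controls 4 were female and 2 male, of the iNICD mice 3 were of each sex, and every LA gave a separate library. The transgene was switched on in the cardiomyocytes of the whole heart, and the LA was sequenced as whole tissue, so that every value below averages over cardiomyocytes and all other cells of the atrium.

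Between 21555678 and 26902478 reads per control library and between 21432632 and 27182038 per iNICD library were counted on genes. *Notch1*, the gene the transgene is made from, had 2335 to 3311 counts in the controls and 71187 to 107667 in the iNICD libraries, so each library matched its label. Atrial cardiomyocyte markers were abundant in all 12 libraries. Control replicate 5 stood apart: 1793 of its tested genes (13.2%) lay at least 2-fold from the mean of its own group, against 187 to 423 genes in the other libraries. Among the 9 genes it was the lowest control for *Adrb1*, *Adra1b*, *Rgs2* and *Rgs6*, the highest for *Gnai2*, and within the range of the other controls for the remaining 4. Counts were scaled to the normalized library totals (normalized CPM), and 13541 genes were compared by edgeR (quasi-likelihood test), where a gene passed at a Benjamini-Hochberg adjusted p under 0.05. A value per kilobase of the deposited gene length (RPKM) was used wherever levels of different genes are set side by side.

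*Adrb1* was the 1 gene of the 9 that rose with Notch activation, by 1.62-fold, and none of the 9 fell. All 9 passed the expression filter and were tested, and 8 did not pass the threshold. Across the tested genes 4.12% passed in either direction, 2.78% higher and 1.34% lower, and 1 gene of 9 is too few to set apart from those shares. The median log2 fold change of the 9 was 0.07, against -0.01 over all tested genes. At an unadjusted p under 0.05 the count by edgeR was also 1 higher and 0 lower, where 2358 of the 13541 tested genes lay under it. None of the 9 had iNICD and control libraries without overlap, against 3.83% of tested genes. In whole tissue a lower count from fewer cells of a type cannot be told apart from less RNA per cell, and the same holds for a higher count.

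**Figure D1:**
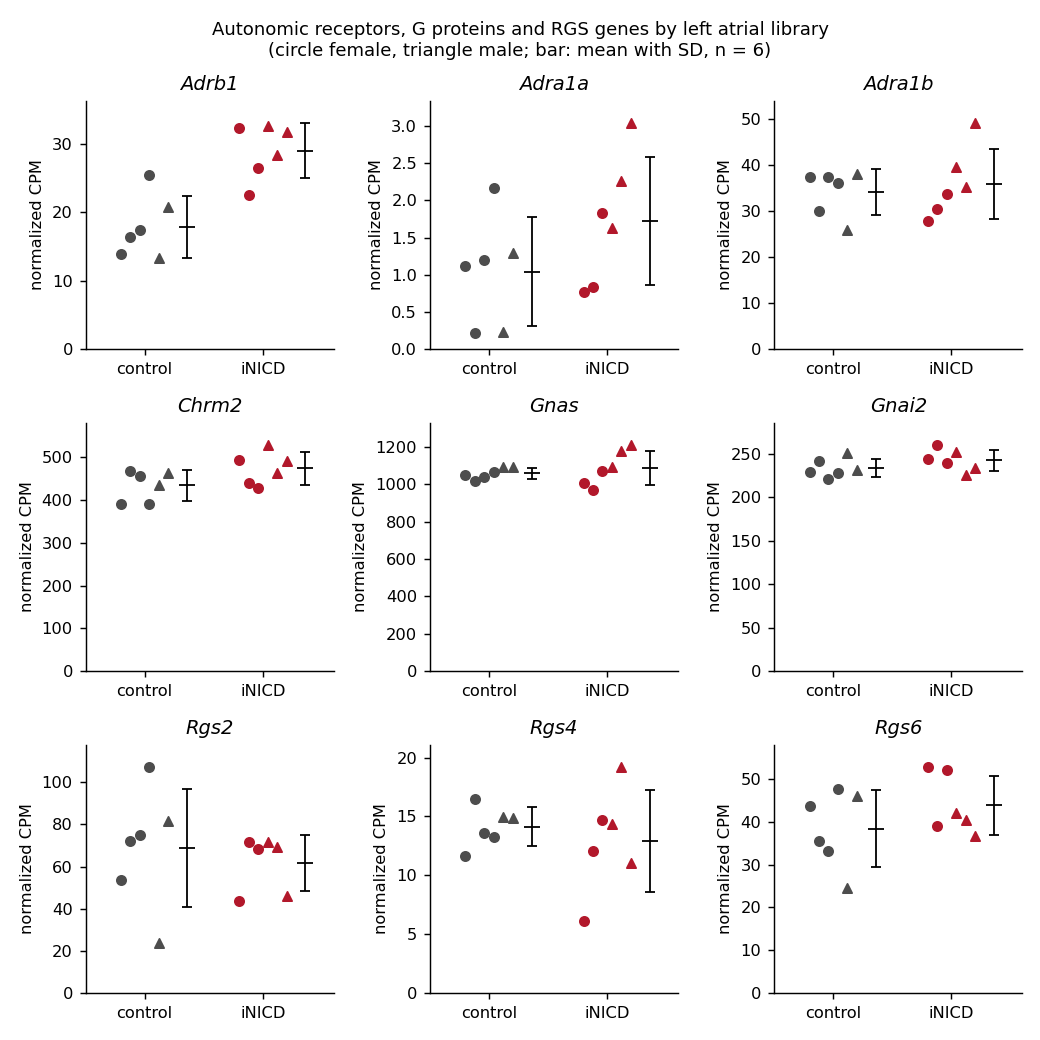
Normalized CPM of each of the 9 genes (y axis, from 0) in the 6 control and 6 iNICD left atrial libraries, 1 point per library (circle female, triangle male), with the mean and SD of each group beside its points. *Adrb1* sat at 22.5 to 32.5 in iNICD libraries and at 13.2 to 25.4 in controls, and each of the other 8 genes had at most 3 of 6 iNICD libraries above every control.

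In control LA the order of levels per length, as mean normalized RPKM, was *Gnas* at 94.6, *Chrm2* at 71.8, *Gnai2* at 61.8, *Rgs2* at 19.0, *Adra1b* at 10.1, *Adrb1* at 7.17, *Rgs4* at 4.56, *Rgs6* at 3.83 and *Adra1a* at 0.119. The control ranges of neighbours in that order overlapped between *Chrm2* and *Gnai2*, between *Rgs2* and *Adra1b*, between *Adra1b* and *Adrb1*, and between *Rgs4* and *Rgs6*. For *Rgs2* and *Adra1b* the overlap came from control replicate 5, and in the other controls *Rgs2* ran from 14.8 to 29.6 RPKM and *Adra1b* from 8.86 to 11.2. Within a library, *Rgs2* was above *Adra1b* in 10 of 12. *Chrm2* was above *Gnai2* in 12 of 12 libraries, so that their order was the same in each animal although the ranges overlapped, and *Adrb1* above *Rgs4* in 12 of 12. *Adra1b* was above *Adrb1* in 7 of 12 and *Rgs4* above *Rgs6* in 7 of 12. The muscarinic receptor was thus the most abundant receptor of the 4 and *Adra1a* the least. The level of *Gnas* per length rests on a deposited length of 11186 bases, which joins the exons of several alternative first exons of this imprinted gene, and a count per gene name cannot separate its transcripts.

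*Adrb1* encodes the main β-adrenergic receptor of cardiomyocytes, and on GRCm38 it lies on the plus strand at chr19:56722199-56733113. The 6 control libraries held 13.9, 16.4, 17.5, 25.4, 13.2 and 20.7 normalized CPM, replicates 1 to 6, with a median of 16.9. The 6 iNICD libraries held 32.3, 22.5, 26.5, 32.5, 28.3 and 31.8, with a median of 30.02. Of the iNICD libraries 5 of 6 lay above every control, and the exception was iNICD replicate 2, which was below control replicate 4 and above the other 5 controls. The group means were 17.9 ± 4.56 in controls and 29.0 ± 3.99 in iNICD (SD, n = 6 each), from 283 to 643 and 511 to 859 counts. The log2 fold change was 0.70, iNICD against control, with an SE of 0.16, a 95% interval of 0.36 to 1.03 and an adjusted p of 0.0230 by edgeR. An exact permutation test of the mean log2 CPM gave p = 0.00433, where 0.0021645 is the smallest value that 6 against 6 libraries allow. Per length, the mean rose from 7.17 to 11.6 RPKM, a level still below that of *Chrm2* in the same libraries.

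Leaving out 1 library at a time moved the log2 fold change of *Adrb1* between 0.62 and 0.83, always higher in iNICD, but the edgeR call was kept in 6 of 12 such fits. It was lost without control replicate 1 (adjusted p = 0.0545), control replicate 2 (0.0504) and control replicate 3 (0.050005, just over the threshold), and without iNICD replicate 1 (0.0595), iNICD replicate 4 (0.0579) or iNICD replicate 6 (0.0513). Without control replicate 5, the library that stood apart, the log2 fold change was 0.62 (edgeR, adjusted p = 0.0259). Over all 24 alternatives it was called in 15, with adjusted p from 0.000811 to 0.631 by edgeR or DESeq2. Female libraries alone gave 0.57 (adjusted p = 0.197) and male libraries alone 0.85 (adjusted p = 0.631), both by edgeR and both in the direction of the full comparison.

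**Figure D2:**
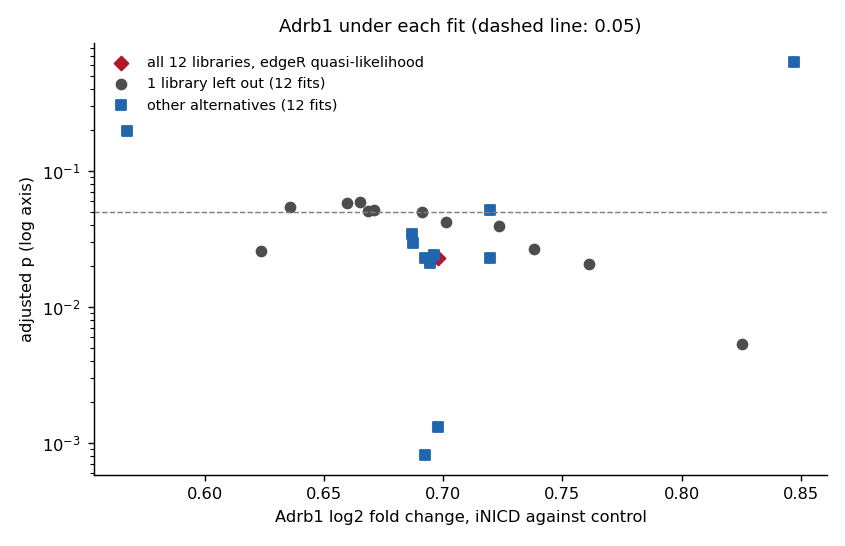
*Adrb1* log2 fold change, iNICD against control (x axis), and its adjusted p on a log axis (y axis), for the fit of all 12 libraries (diamond), the 12 fits with 1 library left out (circles) and 12 other alternatives (squares). Every fit lies to the right of 0, between 0.57 and 0.85, and the points scatter on both sides of the dashed line at 0.05.

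**Figure D3:**
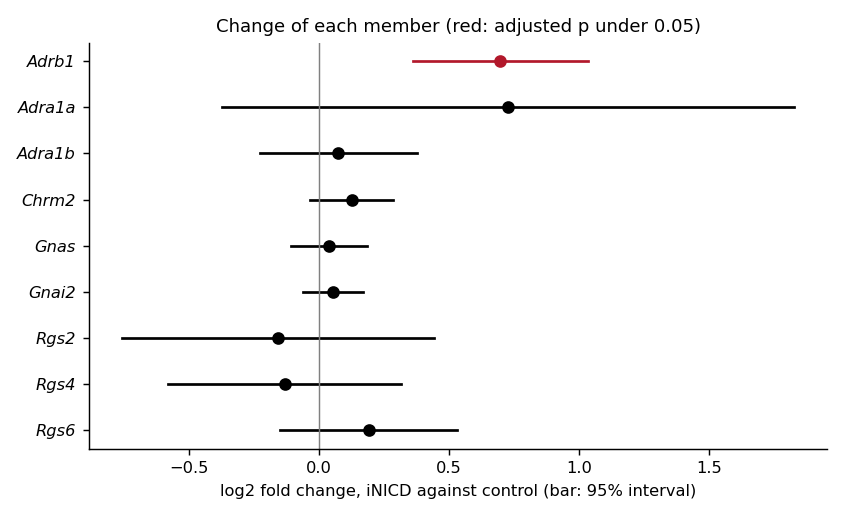
Log2 fold change of each of the 9 genes, iNICD against control (x axis), with the 95% interval of the edgeR fit as a bar. The interval of *Adrb1*, in red, runs from 0.36 to 1.03, and the intervals of the other 8 genes include 0.

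The 250 bases before the RefSeq transcription start of *Adrb1* are printed because this was the receptor gene that rose, and those of *Gnai1* and *Rgs7*, described below, because they were the other pathway genes above the expression filter to rise for which a promoter was listed. Promoters were listed for 7 of the 9 genes, all but *Adra1a* and *Gnai2*. Capitals mark matches, on either strand, to 5 searched words, which are TGGGAA (the core bound by RBPJ, the DNA-binding partner of the Notch intracellular domain), the E box word CACGTG, the N box word CACGAG, the class C word CACGCG (the last 3 being words that Hes and Hey repressors can bind) and TGACG (a core recognised by CREB, a factor that protein kinase A activates). No word contains another. Sequences are from RefSeq on GRCm38.p6, written 5′ to 3′ on the strand of the gene, at chr19:56721867-56722116 on the plus strand for *Adrb1*, chr5:18360414-18360663 on the minus strand for *Gnai1* and chr1:175492546-175492795 on the minus strand for *Rgs7*.
Adrb1: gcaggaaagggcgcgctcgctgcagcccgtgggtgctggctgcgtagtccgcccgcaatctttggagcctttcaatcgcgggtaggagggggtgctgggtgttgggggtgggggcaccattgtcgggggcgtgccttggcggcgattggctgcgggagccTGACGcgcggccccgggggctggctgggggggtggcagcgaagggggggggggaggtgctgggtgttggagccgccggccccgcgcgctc
Gnai1: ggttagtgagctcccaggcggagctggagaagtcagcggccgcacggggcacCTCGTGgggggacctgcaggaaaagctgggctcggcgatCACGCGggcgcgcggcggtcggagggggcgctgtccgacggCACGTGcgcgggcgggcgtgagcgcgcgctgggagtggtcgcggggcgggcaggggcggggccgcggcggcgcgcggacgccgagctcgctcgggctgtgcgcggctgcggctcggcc
Rgs7: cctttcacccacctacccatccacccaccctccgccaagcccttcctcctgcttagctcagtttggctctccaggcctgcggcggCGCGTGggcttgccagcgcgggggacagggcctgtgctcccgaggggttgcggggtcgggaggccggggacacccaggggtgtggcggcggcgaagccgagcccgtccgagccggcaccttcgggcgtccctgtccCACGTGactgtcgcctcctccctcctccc
The *Adrb1* window held 1 match, TGACG at 90 bases before the start, and none of the other 4 words. The *Gnai1* window held CACGTG at 118 bases before the start, CACGCG at 159 and CACGAG, on the opposite strand, at 198. The *Rgs7* window held CACGTG at 29 bases before the start and CACGCG, on the opposite strand, at 165. The window of *Rgs9*, a pathway gene below the expression filter that is described further on, held TGGGAA on the opposite strand at 224 bases before the start. That of *Gng2*, the pathway gene that fell, held none of the 5 words. Over 32851 promoter windows of 250 bases, 21.6% held TGGGAA, 6.02% CACGTG, 5.37% CACGAG, 7.62% CACGCG and 17.8% TGACG. The *Adrb1*, *Gnai1* and *Rgs7* windows were 74%, 79.2% and 72.4% G or C, and those shares were not matched for base composition. Of the other 6 members with a listed promoter, *Rgs2* held CACGAG on both strands and TGACG on both strands, *Rgs4* held TGACG on both strands, and *Chrm2*, *Adra1b* and *Rgs6* held none of the words. *Gnas*, with 4 listed starts, held TGACG in 3 of its windows, 2 of which overlap and share the match, and TGGGAA in 1. These are matches of letters and not sites shown to be bound.

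The 2 α1-adrenergic receptors did not pass the threshold. *Adra1a*, which in the heart serves contractility and growth, ran from 0.221 to 2.17 normalized CPM in controls with a median of 1.16, and from 0.772 to 3.04 in iNICD with a median of 1.73. The groups overlapped widely, and 2 of 6 iNICD libraries lay above every control. It was the rarest of the 9 genes, with 5 to 55 counts in control and 19 to 74 in iNICD libraries, and its log2 fold change of 0.73 had an SE of 0.51 and a 95% interval of -0.37 to 1.83 (edgeR, adjusted p = 0.492). That estimate is as large as that of *Adrb1*, and a 3-fold higher level is still inside its interval, whose bounds in fold are 0.772 and 3.55. The lowest control values were those of replicates 2 and 5.

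*Adra1b*, the more abundant α1-adrenergic receptor in mouse heart, ran from 25.9 to 37.9 normalized CPM in controls (median 36.8) and from 27.7 to 49.0 in iNICD (median 34.4). The ranges overlapped, with 2 of 6 iNICD libraries above every control, and the median was lower in iNICD while the mean was higher, at 35.9 ± 7.58 against 34.1 ± 5.01 (SD, n = 6 each). Its log2 fold change was 0.07 with an interval of -0.23 to 0.38 (edgeR, adjusted p = 0.823). In females it was -0.20 and in males 0.36, and the interaction of sex and genotype had an unadjusted p of 0.0379 and an adjusted p of 0.916 by edgeR. That was the 1 interaction of the 9 genes at an unadjusted p under 0.05, and no gene of the table passed the adjusted threshold for it. At an unadjusted p under 0.05 it had 501 genes.

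*Chrm2*, which lies at chr6:36388084-36528414, ran from 390.9 to 469 normalized CPM in controls with a median of 446, and from 428 to 529 in iNICD with a median of 478. The ranges overlapped, with 3 of 6 iNICD libraries above every control. Its means were 434 ± 35.5 and 474 ± 37.7 (SD, n = 6 each), and the log2 fold change of 0.13 had an interval of -0.03 to 0.29 (edgeR, adjusted p = 0.402), in fold 0.978 to 1.22. The comparison with *Adrb1* itself is the ratio of the 2 genes within each library, given below.

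The G protein subunits were the most tightly measured. *Gnas* ran from 1018 to 1093 normalized CPM in controls with a median of 1055, and from 969 to 1209 in iNICD with a median of 1083. The spread in iNICD was wider than in controls, with an SD of 93.5 against 29.6, and iNICD libraries lay on both sides, 3 above and 2 below every control. The log2 fold change was 0.04 with an interval of -0.11 to 0.18 (edgeR, adjusted p = 0.811). *Gnai2* ran from 221 to 251 in controls (median 229.9) and from 226 to 260.1 in iNICD (median 242), and its log2 fold change of 0.05 had an interval of -0.06 to 0.17 (edgeR, adjusted p = 0.635). In fold the bounds were 0.929 to 1.14 for *Gnas* and 0.959 to 1.13 for *Gnai2*. *Nespas*, the antisense gene in the *Gnas* locus, had 0 to 2 counts in controls and 0 to 4 in iNICD libraries.

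The 3 RGS genes overlapped between the groups in every case. *Rgs2*, which acts mainly on Gq, ran from 23.8 to 107 normalized CPM in controls with a median of 73.5, and from 43.4 to 71.9 in iNICD with a median of 68.8. The lowest and highest control values were those of replicates 5 and 4, so that all 6 iNICD libraries lay inside the control range. The log2 fold change of -0.16 had an SE of 0.28 and an interval of -0.76 to 0.44 (edgeR, adjusted p = 0.813). Leaving out control replicate 4 brought it to 0.01, and leaving out control replicate 5 to -0.34.

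*Rgs4*, a regulator of Gi and Gq that is expressed in the sinoatrial region and the atria, ran from 11.7 to 16.5 normalized CPM in controls (median 14.2) and from 6.09 to 19.2 in iNICD (median 13.2). The iNICD libraries spread more widely, with 1 above and 2 below every control. The log2 fold change of -0.13 had an interval of -0.58 to 0.32 (edgeR, adjusted p = 0.786), and without iNICD replicate 1, the lowest library at 6.09, it was 0.01. *Rgs6*, which with *Gnb5* limits muscarinic slowing of the heart, ran from 24.4 to 47.7 in controls (median 39.5) and from 36.7 to 52.8 in iNICD (median 41.2). Only 2 of 6 iNICD libraries lay above every control, and its log2 fold change of 0.19 had an interval of -0.15 to 0.53 (edgeR, adjusted p = 0.566).

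Ratios of counts within a library do not depend on scaling between libraries, and 6 of them were compared. The ratio of *Adrb1* to *Chrm2* had a median of 0.0370 in controls, from 0.0305 to 0.0650, and of 0.0617 in iNICD, from 0.0513 to 0.0655. Control replicate 4 alone among controls reached the iNICD range. The mean log2 ratio was higher by 0.60 in iNICD, 1.51-fold, with a two-sided exact permutation p of 0.0130 and 0.0779 after adjustment over the 6 ratios, so it did not pass the correction. The ratio of *Gnas* to *Gnai2*, the stimulatory against the inhibitory subunit, differed by -0.02 on the log2 scale (exact permutation p = 0.803, adjusted 0.803). Its medians were 4.61 and 4.40, with 2 iNICD libraries above and 2 below every control.

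The other 4 ratios had p above 0.05 in the exact permutation test over all 12 libraries. *Adra1a* to *Adra1b* was higher in iNICD by 0.91 (p = 0.123, adjusted 0.247), *Rgs2* to *Adra1a* lower by a log2 difference of -1.03 (p = 0.0714, adjusted 0.214), *Rgs4* to *Chrm2* lower by -0.33 (p = 0.219, adjusted 0.328) and *Rgs6* to *Chrm2* higher by 0.09 (p = 0.682, adjusted 0.803), all with n = 6 per group in the exact permutation test. With 1 library left out, the exact permutation p before adjustment was 0.0368 for *Adra1a* to *Adra1b* without control replicate 4, 0.0216 for *Rgs4* to *Chrm2* without iNICD replicate 5 and 0.0216 for *Rgs2* to *Adra1a* without iNICD replicate 2. The ratios with *Adra1a* rest on as few as 5 counts in a library.

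**Figure D4:**
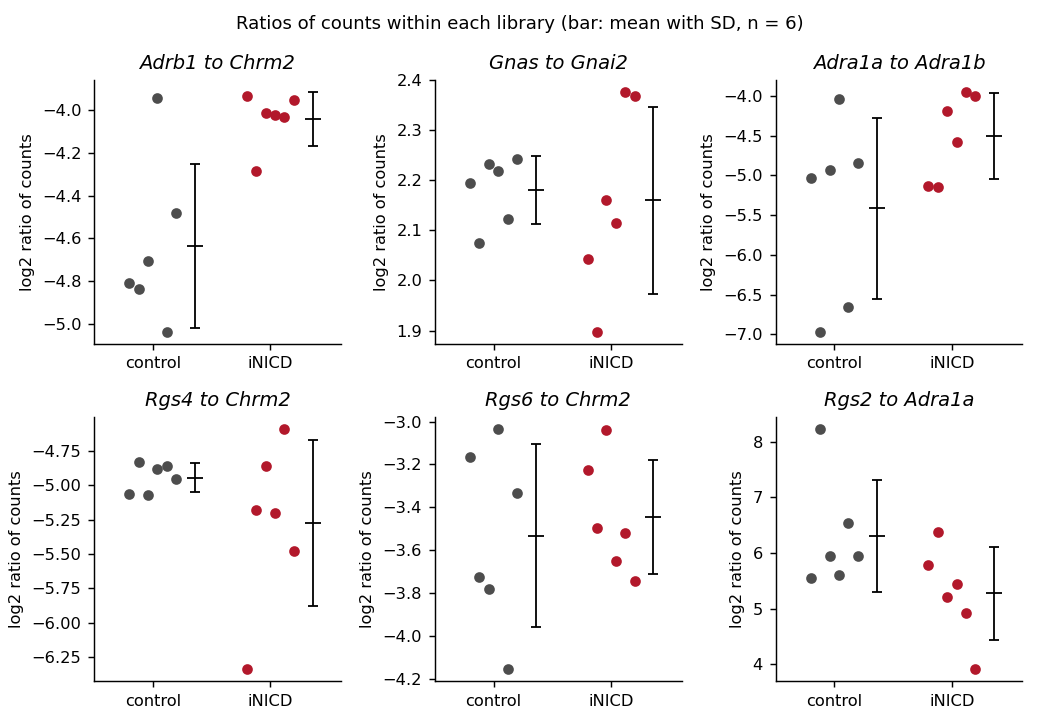
Log2 ratio of the counts of 2 genes within each library (y axis, not from 0), for 6 pairs of genes, 1 point per library, with mean and SD of 6 libraries per group. The *Adrb1* to *Chrm2* ratios of the iNICD libraries cluster, with an SD of 0.13 against 0.38 in controls, around a mean that is higher by 0.60.

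By the Pearson correlation of log2 CPM after the group mean was subtracted, over the 12 libraries, the genes with a pattern most like *Adrb1* were *Coprs* (r = 0.890), *Sema4d* (0.886) and *Pdk3* (0.880). Without control replicate 5 the values were 0.870, 0.881 and 0.856. These points share their libraries and are the highest of 13540 pairings, given as a description.

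Of the wider pathway, 94 of 96 listed genes were in the table and 58 were tested, of which 3 rose, 1 fell and 54 did not pass. Over all tested genes 2.78% were higher and 1.34% lower, and the difference of the pathway genes from those shares was not tested. The median log2 fold change of the 58 was 0.01. The genes that passed were *Gnai1*, *Rgs7*, *Adcy6* and *Gng2*.

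*Gnai1*, the inhibitory alpha subunit related to *Gnai2*, ran from 14.2 to 18.05 normalized CPM in controls and from 18.08 to 30.9 in iNICD, and the groups did not overlap, though only narrowly. Its mean rose from 16.4 ± 1.66 to 24.4 ± 4.70 (SD, n = 6 each), a log2 fold change of 0.57 with an SE of 0.12 (edgeR, adjusted p = 0.0206). That call was lost without control replicate 1 (0.0524) or iNICD replicate 1 (0.0537), and in females (0.147) or males (0.713) alone. *Gnai1* remained far below *Gnai2*, with a control mean of 5.24 against 61.8 RPKM. The other 7 tested alpha subunits did not pass, and the most abundant per length in controls were *Gna12* at 48.6 and *Gna11* at 23.9 RPKM.

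*Adcy6*, one of the main cardiac adenylyl cyclases that make cyclic AMP downstream of β1 receptors, rose from 612 ± 46.9 to 825 ± 111 normalized CPM (SD, n = 6 each), with no overlap between the groups. Its log2 fold change was 0.43 with an SE of 0.09 (edgeR, adjusted p = 0.0204), and the call was lost without iNICD replicate 1 (0.0530) and in females (0.158) or males (0.699) alone. It was also lost with the replicate numbers of the sample descriptions as a block (edgeR, adjusted p = 0.0566). The related cyclase *Adcy5* had a log2 fold change of -0.29 (edgeR, adjusted p = 0.112). The other 11 of 12 effectors, including *Pln* (354 RPKM) and the muscarinic potassium channel subunit *Kcnj5* (126.5 RPKM), the most abundant of them per length in controls, did not pass. *Kcnj3*, also among the 11, had a log2 fold change of -0.34 (edgeR, adjusted p = 0.600). Without control replicate 5, the library that stood apart, it was -0.54 and passed (edgeR, adjusted p = 0.0316), as in no other alternative.

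*Rgs7*, a relative of *Rgs6* in the R7 family that also pairs with *Gnb5*, rose from 19.4 ± 3.07 to 29.5 ± 6.44 normalized CPM (SD, n = 6 each), with 5 of 6 iNICD libraries above every control. Its log2 fold change was 0.61 with an SE of 0.15 (edgeR, adjusted p = 0.0397), and the call held in 2 of 12 fits with a library left out, those without control replicate 5 or iNICD replicate 6, with adjusted p from 0.0535 to 0.0886 in the other 10. The other 10 of 11 tested RGS genes did not pass, among them *Rgs5*, a regulator abundant in pericytes and the most abundant of the list at 54.7 RPKM, and *Rgs12* at 9.97. *Gnb5* had a log2 fold change of 0.13 (edgeR, adjusted p = 0.485). A further R7 gene, *Rgs9*, was below the expression filter, with 1 to 12 counts in controls and 17 to 53 in iNICD, and with no overlap. In an edgeR fit of all 29835 genes with a count its log2 fold change was 2.67 with an SE of 0.43 (adjusted p = 0.00270), the 1 such gene called among 36 untested pathway genes, singled out after its values were seen.

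*Gng2*, a gamma subunit of the beta-gamma dimer, was the pathway gene that fell, from 112.6 ± 20.9 to 76.4 ± 11.2 normalized CPM (SD, n = 6 each), with 3 of 6 iNICD libraries below every control. Its log2 fold change was -0.56 with an SE of 0.13 (edgeR, adjusted p = 0.0327), kept in 3 of 12 fits with a library left out, those without control replicates 2 or 5 or iNICD replicate 6, with adjusted p from 0.0534 to 0.0756 in the other 9. The other 11 of 12 tested beta and gamma subunits did not pass, with *Gnb1* and *Gnb2* the most abundant per length.

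**Figure D5:**
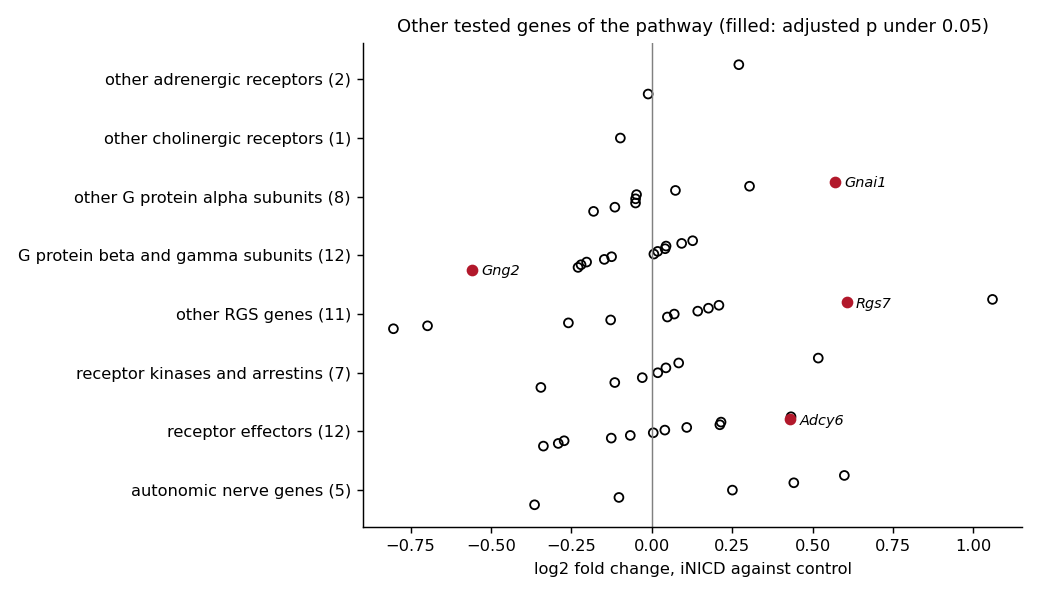
Log2 fold change, iNICD against control (x axis), of the 58 tested genes of the wider pathway, 1 point per gene in 8 lists (number tested in brackets), filled where the adjusted p by edgeR was under 0.05. *Gnai1*, *Rgs7* and *Adcy6* lie to the right at 0.57, 0.61 and 0.43, and *Gng2* to the left at -0.56.

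The remaining lists had no gene past the threshold. The 7 receptor kinases and arrestins, which switch off active receptors, had a median log2 fold change of 0.02, with *Grk2* (19.2 RPKM) and *Grk5* (15.4) the most abundant and *Grk3* nearest the threshold at 0.52 (edgeR, adjusted p = 0.0621). *Grk3* was called higher by DESeq2 (adjusted p = 0.0156), the edgeR exact test (0.0169) and edgeR with upper-quartile scaling (0.0423). In edgeR it was also called with sex as a covariate (0.0245), blocks by description number (0.00673) and females alone (0.00953). Without control replicate 5 it was 0.66 (edgeR, adjusted p = 0.00113), and in the remaining alternatives it was not called. Of the other adrenergic receptors, *Adra1d* had means of 2.14 and 2.13 normalized CPM and a log2 fold change of -0.01 (edgeR, adjusted p = 0.983). *Chrm3* was the 1 further cholinergic receptor tested, at 4.92 and 4.61 normalized CPM (edgeR, adjusted p = 0.914). The 5 tested genes of autonomic nerves did not pass either, among them *Ache*, the enzyme that breaks down acetylcholine, with a log2 fold change of 0.60 (edgeR, adjusted p = 0.304).

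Markers of cell types moved as follows beside these values. Of 7 cardiomyocyte markers 0 rose and 3 fell, *Tnnt2* (log2 fold change -0.44), *Myl7* (-0.54) and *Sln* (-0.64) by edgeR, and their summed level was 61221 to 74302 normalized CPM in controls and 51916 to 61904 in iNICD. Of 7 smooth muscle and pericyte markers *Cspg4* rose, by a log2 fold change of 1.89, with a sum of 179 to 519 in controls and 326 to 487 in iNICD, and medians of 202 and 344. *Cspg4* itself had means of 46.5 and 171.8 normalized CPM, while *Acta2* (log2 fold change -0.25), *Tagln* (-0.67), *Cnn1* (-0.66) and the other 3 markers did not pass, and the median of the 7 was 0.04. Control replicate 5 held the highest control sum of the cardiomyocyte, smooth muscle, endothelial and leukocyte markers, and without it the highest control sums of the first 2 lists were 66065 and 389.6. None of the tested markers of endothelium (6 of 6), fibroblasts (6 of 6), leukocytes (6 of 6), mesothelium (5 of 5), adipocytes (1 of 5) or Schwann cells (4 of 5) passed. Their sums were 889 to 1149 against 809 to 1038, 2134 to 2830 against 2114 to 3041, 207 to 270 against 196 to 303, 217 to 309 against 140 to 289, 1.59 to 5.78 against 0.644 to 8.15, and 18.8 to 31.8 against 20.7 to 29.4 normalized CPM in controls and iNICD, in that order, and no marker was at 0 in all libraries. The part of these shifts in the values of *Adrb1*, *Gnai1*, *Adcy6*, *Rgs7* and *Gng2* was not tested.

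The neighbours of the 9 genes on their chromosomes, 2 tested genes on each side, gave 36 genes, of which 2 passed the threshold, where 4.12% of all tested genes did. They were *Creb3l2*, 799 kb from *Chrm2* (log2 fold change -0.44, edgeR, adjusted p = 0.0433), and *Sipa1l1*, 137 kb from *Rgs6* (1.06, adjusted p = 0.00277). The 4 neighbours of *Adrb1*, which are *Nhlrc2*, *Dclre1a*, *Ccdc186* and *Afap1l2*, had log2 fold changes from -0.35 to 0.03 and none passed.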

How the data were processed

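RNA from 12 LA was depleted of ribosomal RNA and sequenced as single-end reads by the authors, who deposited raw counts per gene name, with no normalization, and a length in bases per gene. Per the labels, cutadapt, STAR 2.4.2a, Subread, featureCounts and edgeR were used with mm10, while the methods describe both a STAR and featureCounts route and a TopHat2 and HTSeq route. The methods state that the TopHat2 route left out mitochondrial reads. The table does not name its route, and it holds 37 mitochondrial genes, at 7.52% to 11.2% of counts.

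Group, replicate number and sex came from sample titles and descriptions. The members and lists were chosen with earlier results of these data known. Genes over 1 CPM in at least 6 libraries (13541) were normalized by TMM and compared, two-sided, in edgeR 4.0.16 (quasi-likelihood test, R 4.3.3). Values are means with SD over 6 libraries. Single values were compared by exact permutation of the libraries (924 arrangements), and ratios were taken after adding 0.5 counts. Likeness used log2 CPM with a prior count of 2. No library duplicated another of its group (lowest chi-square per gene 16.8). The named genes were all 9 members, up to 5 genes per pathway list past the threshold, the 2 most abundant per length of each list, 3 genes most like each changed member, and *Notch1*. Neighbouring genes, cell type markers, *Gnb5*, *Rgs16*, *Nespas*, *Rgs9*, *Adcy5*, *Kcnj3*, *Grk3* and the autonomic nerve genes below the filter were named outside this rule. Some genes under this rule are not reported here. Positions are from GENCODE M21 on GRCm38, and promoters from RefSeq. The edgeR steps were tested on simulated data. Alternatives were DESeq2 1.42.0, the exact test of edgeR, RLE and upper-quartile scaling, other filters, sex as a covariate, replicate blocks, each sex alone, each library left out, counts without mitochondrial genes, and a ratio pseudocount of 5 counts. Those for *Gnai1*, *Gng2*, *Rgs7*, *Adcy6*, *Grk3* and *Kcnj3*, and the reading of *Rgs9* from the fit with no filter, were chosen after seeing the data.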

Additional observations from a re-analysis of the deposited data

Results flagged for a closer look

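Among 30 groups of 6 libraries, each a gene or a ratio in control or iNICD, 2 had a library at one end that stood far from the rest of its group, where chance gives 1.5. The ratio of *Adrb1* to *Chrm2* was 0.0513 in iNICD replicate 2, against 0.0612 to 0.0655 in the other 5 iNICD libraries. The ratio of *Rgs2* to *Adra1a* was 300.2 in control replicate 2, against 47.1 to 92.6 in the other controls, and it rests on 6 counts of *Adra1a*.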

How the results depend on the processing

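Each of 24 alternatives was run for the gene counts and fold changes, and 15 for the ratios. Changing the scaling moved the median of all genes by at most 0.01 on the log2 scale. *Chrm2* and *Rgs6* kept their direction in all 24 without passing the threshold. With DESeq2, 3 pathway genes were lower in place of 1 (*Gng2*, *Rgs16* and *Adcy5*), and 615 genes were higher and 444 lower in place of 377 and 181. The exact test of edgeR called 279 lower. Same-numbered libraries correlated with a mean r of 0.121 by title numbers (4 of 6 pairs over 0.1, from -0.153 to 0.372). By description numbers, which exchange 2 controls, the mean r was 0.138 (4 of 6 pairs over 0.1). With the 2 numberings, 5 and 4 of 12 libraries were closest to their own number. These values do not settle whether the numbers pair the animals, so replicate blocks were kept as alternatives. The replicate block by title number left 1 member higher and called 332 genes higher and 136 lower, with *Gng2* (adjusted p = 0.0707) and *Rgs7* (0.0983) not called. By description number the replicate block called 0 members higher (*Adrb1* 0.72, adjusted p = 0.0520), with *Adcy6* (0.0566) and *Rgs7* (0.0806) not called either, 2 pathway genes lower, and 285 higher and 136 lower over all genes (edgeR). With sex as a covariate *Rgs7* was not called (edgeR, adjusted p = 0.0502).

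Female libraries alone called 0 members and 1 pathway gene higher (*Grk3*, 0.56, edgeR, adjusted p = 0.00953), with *Gng2* still lower, and had *Adra1a* at -0.025, *Adra1b* at -0.20 and *Gnas* at -0.037. Male libraries alone called 0 members, 0 pathway genes higher and 0 lower, and 8 genes higher and 0 lower, with *Gnai2* at -0.034 and *Rgs2* at 0.23. The log2 ratio of *Adrb1* to *Chrm2* was 0.50 in females (exact permutation p = 0.114) and 0.76 in males (0.1, the smallest that 3 against 2 allow), and that of *Gnas* to *Gnai2* was 0.10 in males. These have fewer samples.

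With 1 library left out, 0 to 1 members and 0 to 4 pathway genes were higher, 0 to 2 pathway genes and 90 to 310 of all genes lower. Log2 fold changes ran from -0.34 to 0.014 for *Rgs2*, -0.28 to 0.015 for *Rgs4* and -0.034 to 0.14 for *Adra1b*. Log2 ratios ran from -0.064 to 0.032 for *Gnas* to *Gnai2*, 0.60 to 1.19 for *Adra1a* to *Adra1b*, -0.47 to -0.12 for *Rgs4* to *Chrm2*, -0.038 to 0.19 for *Rgs6* to *Chrm2* and -1.25 to -0.64 for *Rgs2* to *Adra1a*. The cause of these changes was not tested. *Adra1a* had the fewest counts of the 9 genes, 5 to 74 per library.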

Other observations

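Genes of autonomic nerve endings were mostly below the expression filter in these atria. *Th*, the rate-limiting enzyme of catecholamine synthesis, had 0 to 1 counts in control and 1 to 5 in iNICD libraries, and in the edgeR fit with no filter its adjusted p was 0.0926. *Dbh*, which makes noradrenaline from dopamine, had 3 to 17 and 1 to 8 counts (adjusted p = 0.278, edgeR). *Chat*, which makes acetylcholine, and the ganglionic receptor subunits *Chrna3* and *Chrnb4* were at 0 counts in all 12 libraries.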
